A study of Homo sapiens with 3 samples.

Results

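This account covers 48 human genes that encode ATP-dependent chromatin remodellers and their partner subunits, out of 60660 genes in the deposited table. They were chosen by name, as the table rows whose Ensembl identifiers carry those symbols in GENCODE release 29, and not by their values. All 48 were found, each with 1 identifier, and all had a value above 0 in every library. RNA came from SHSY5Y, a human neuroblastoma cell line obtained from ATCC, grown as adherent cells in Eagle's minimum essential medium with fetal bovine serum and harvested at about 60% confluency. The 3 libraries, replicates 1, 2 and 3, form 1 group of untreated cells from separate flasks of the same line, so every test below measures the spread between flasks and not between tumours or donors. The series holds no second condition, so genes are compared with each other inside a library, and with fixed levels.

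Chromatin remodellers use the energy of ATP to slide, evict or exchange nucleosomes, and so set which DNA is open to transcription factors and repair enzymes. SWI/SNF complexes, assembled on SMARCA4 or SMARCA2, exist as BAF, PBAF and non-canonical BAF (ncBAF), which share core subunits and differ in a few defining ones. NuRD joins a CHD-type ATPase to histone deacetylases and to MBD2 or MBD3, proteins of the methyl-CpG-binding domain (MBD) family. In mouse neural development, progenitors exchange the BAF subunits ACTL6A, PHF10 and SS18 for ACTL6B, DPF1 or DPF3, and SS18L1 when they leave the cell cycle and become neurons. Several of the genes are tumour suppressors or are mutated in neurodevelopmental syndromes, and ARID1A and ARID1B are among the genes lost in some neuroblastomas.

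The values are FPKM, which scale fragments by transcript length and by the mapped fragments of a library, so levels can be set side by side between genes of different length. Even steps among low values put the depth at about 21600000, 28500000 and 43500000 reads in replicates 1, 2 and 3, and 3 reads per kb of effective length equal 0.139, 0.105 and 0.069 FPKM, a floor for counting error only. The cell identity was checked with 5 noradrenergic neuroblastoma markers, which were all called above 10 FPKM, from ISL1 at 102.6 ± 2.5 FPKM to HAND2 at 454 ± 9.18 FPKM (SD, n = 3). The T cell gene CD3E, the endothelial gene CDH5 and the keratin gene KRT5 were listed at 0 in all libraries, while PDGFRB, 1 of 3 fibroblast markers, stood at 29.8 ± 1.91 FPKM beside COL1A1 at 3.79 ± 0.456. A gene listed at 0 can also be a failed estimate.

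Nearly all remodeller genes lay above 10 FPKM in these cells. Tested with limma on log2(FPKM + 0.1) against 1 FPKM, 47 of 48 were called above (adjusted p under 0.05), where the same call was made for 45.5% of all 31736 genes tested and 70.6% of the 16750 protein-coding genes tested. The exception was DPF3, which was called neither. No member was called below by limma (0 also at an unadjusted p under 0.05), a call made for 43.7% of all genes and 24.6% of protein-coding genes. Against 10 FPKM, 46 of 48 were called above, beside 25.1% of all genes and 44.2% of protein-coding genes. EP400 was called neither above nor below 10 FPKM (called below after rescaling to TPM, which gives every library the same sum, with limma adjusted p = 0.00678), and DPF3 was called below, a call made for 68.1% of all genes and 47.8% of protein-coding genes. The median of the 48 means was 44.1 FPKM, against 9.13 FPKM over the protein-coding genes tested and 1.08 FPKM over all genes tested. By library, that median was 47.1, 41.5 and 43.7 FPKM in replicates 1, 2 and 3. The levels ran from DPF3 at 1.28 ± 0.419 FPKM to CHD4 at 1198 ± 74.0 FPKM.

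**Figure D1:**
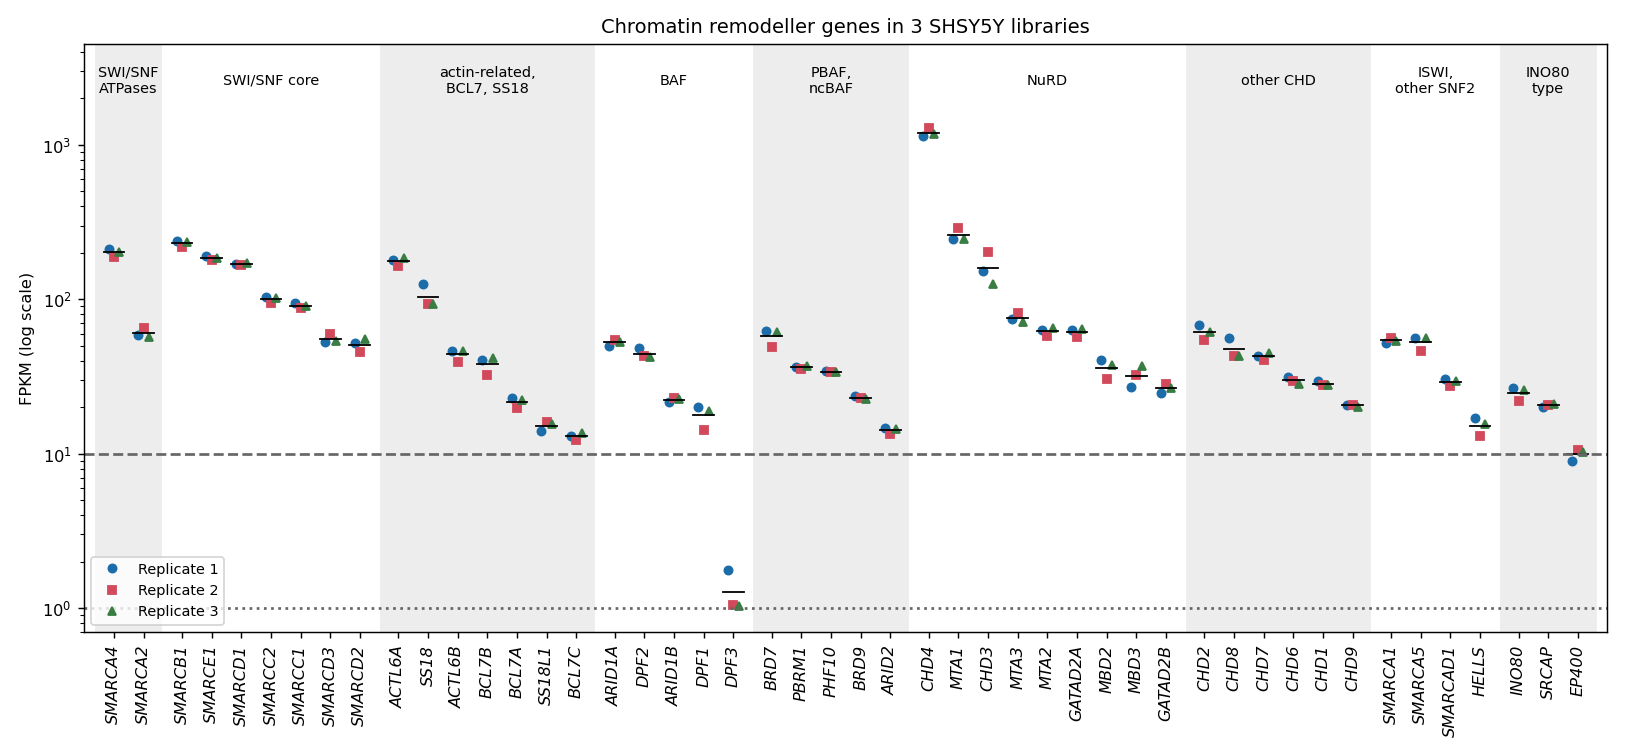
FPKM of the 48 genes (y axis, log scale) by complex (x axis), with 1 point per library and a black line at the mean of 3 libraries; the dotted line marks 1 FPKM and the dashed line 10 FPKM. CHD4 stands alone near 1198 FPKM, DPF3 lies at the lower line, EP400 lies at the upper one, and the other genes lie between 13.0 and 261.8 FPKM.

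The SWI/SNF ATPases, the motors of the complex, were both abundant. SMARCA2 (BRM; chromosome 9, 1980290 to 2193624) had 58.5, 65.0 and 57.2 FPKM in replicates 1, 2 and 3. SMARCA4 (BRG1; chromosome 19, 10960825 to 11079426) had 212.1, 188.1 and 202.6 FPKM. Every SMARCA2 value was below every SMARCA4 value, and SMARCA2 ranked 1988 among the protein-coding genes tested, SMARCA4 467. SMARCA2 held 23.1% ± 2.23 of the sum of both (SD, n = 3). The log2 difference of SMARCA2 over SMARCA4 was -1.74 ± 0.18 (SD, n = 3), with the same sign in 3 of 3 libraries. An exact two-sided sign-flip permutation test over 3 libraries cannot give a p below 0.25, so none of the 26 pairs compared here could pass the threshold. The 23 pairs with 1 sign in every library all have exact p = 0.25, or 0.283 after Benjamini-Hochberg adjustment over the 26.

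The core subunits, which hold the complex together and contact the nucleosome, ran from SMARCD2 at 50.8 FPKM to SMARCB1 at 231.1 FPKM in mean. Of 7, all were called above 10 FPKM by limma, and the median of their means was 99.9 FPKM. SMARCB1 (chromosome 22, 23786931 to 23838008), the tumour suppressor lost in rhabdoid tumours, was highest with 239.6, 219.4 and 234.2 FPKM. SMARCE1, a high-mobility-group DNA-binding subunit, reached 184.9 ± 5.96 FPKM, and 19.8% of its exonic bases are shared with the read-through gene AC073508.2 on the same strand (0.020 FPKM). These values lay close to that of the motor gene, and SMARCA4 FPKM divided by SMARCB1 FPKM was 0.885, 0.857 and 0.865 in the 3 libraries.

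The scaffold subunits SMARCC2 and SMARCC1 form a dimer at the base of the complex. SMARCC2 had 103.7, 94.7 and 101.3 FPKM, and SMARCC1 had 94.2, 88.4 and 89.8 FPKM. Their shares were near even, 52.4% ± 0.646 and 47.6% ± 0.646 (SD, n = 3), and SMARCC2 was the higher in each library, by 0.14 ± 0.04 on the log2 scale. MYL6 at 717 FPKM covers 6.0% of the exonic bases of SMARCC2 from the opposite strand, and the part of those reads in the SMARCC2 value was not tested.

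Of the SMARCD subunits, which link the core to transcription factors, 1 form led. SMARCD2 had 51.9, 45.5 and 55.1 FPKM and SMARCD3 had 52.9, 59.6 and 53.7 FPKM, against 170.1, 165.6 and 171.1 FPKM for SMARCD1. SMARCD1 held 61.4% ± 0.421 of the sum, with no overlap between it and the others. SMARCD2 and SMARCD3 overlapped each other and changed order between libraries.

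The subunits that are exchanged in neurons were all detected, and at each position the form found in dividing progenitors was the higher. ACTL6B (chromosome 7, 100643097 to 100656461), the actin-related subunit of neurons, had 46.1, 39.4 and 46.1 FPKM. ACTL6A (chromosome 3, 179562880 to 179588408), the form of progenitors and of most other cells, had 178.8, 163.9 and 185.1 FPKM. The proportion was nearly the same in each flask, with 20.5%, 19.4% and 19.9% ACTL6B, and the log2 difference was -2.00 ± 0.05 (SD, n = 3). SS18L1, the neuronal co-activator also called CREST, had 14.1, 16.0 and 15.6 FPKM, and its paralogue SS18 had 124.9, 93.4 and 93.0 FPKM. SS18L1 held 13.0% ± 2.53 of the sum, with replicate 1 lowest at 10.1%. ACTL6B and SS18L1 were both called above 10 FPKM (limma adjusted p = 0.000202 and 0.0041), and the SS18L1 call was lost after rescaling to TPM (log2 value 0.11, adjusted p = 0.244). Beside them, STMN2, a gene of growing axons, stood at 2405 ± 71.9 FPKM, and RBFOX3, which marks mature neurons, at 0.241 ± 0.0497 FPKM.

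The double PHD finger subunits read modified histone tails. DPF1, a neuronal form, had 20.2, 14.3 and 19.0 FPKM. DPF3 (chromosome 14, 72619296 to 72894116), a form of neurons and muscle, had 1.76, 1.04 and 1.03 FPKM, with replicates 2 and 3 at 1 level and replicate 1 above them. PHF10, the progenitor form that belongs to PBAF, had 34.1, 33.8 and 33.9 FPKM, the smallest spread of all 48 genes. DPF2, the form present in most cells, had 48.0, 42.7 and 42.1 FPKM.

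DPF1, DPF3, PHF10 and DPF2 made up 18.3%, 1.3%, 34.9% and 45.5% of their sum on average. The log2 difference over DPF2 was -1.32 ± 0.22 for DPF1, -5.05 ± 0.31 for DPF3 and -0.38 ± 0.10 for PHF10 (SD, n = 3). DPF1 and DPF3 together held 39.2%, 31.2% and 37.2% of the sum of DPF1, DPF3 and PHF10 in replicates 1, 2 and 3. Against 1 FPKM, DPF3 gave a log2 value of 0.28 (SE 0.197, limma adjusted p = 0.254), so it could not be placed on either side of that level. Its values nevertheless lay above the floor of 3 reads, which on its annotated exonic length is 0.0208, 0.0157 and 0.0103 FPKM.

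The neuron-enriched members DPF3 and SS18L1 and their more abundant paralogues have different sequences before their start sites. The 250 bases upstream of the RefSeq start (GRCh38.p14), written 5′ to 3′ on the strand of the gene, are shown for the 2 pairs because they have the widest level gaps among the SWI/SNF pairs. Capitals mark CCAAT and GGGCGG on either strand, motifs that do not overlap each other, and ETS, E-box, NRF1, TATA and YY1 motifs were searched too and are absent from these 4 stretches.
DPF3, chr14:72894102-72894351, minus strand: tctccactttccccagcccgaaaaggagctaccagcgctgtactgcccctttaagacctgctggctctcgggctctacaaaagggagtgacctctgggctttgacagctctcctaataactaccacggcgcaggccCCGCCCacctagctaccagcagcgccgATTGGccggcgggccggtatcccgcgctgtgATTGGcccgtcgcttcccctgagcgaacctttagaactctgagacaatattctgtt
DPF2, chr11:65333602-65333851, plus strand: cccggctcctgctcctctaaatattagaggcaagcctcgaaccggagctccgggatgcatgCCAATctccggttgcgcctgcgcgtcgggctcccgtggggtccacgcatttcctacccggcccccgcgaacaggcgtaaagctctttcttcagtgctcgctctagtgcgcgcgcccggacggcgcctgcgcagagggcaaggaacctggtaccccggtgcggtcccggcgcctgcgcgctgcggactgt
SS18L1, chr20:62143519-62143768, plus strand: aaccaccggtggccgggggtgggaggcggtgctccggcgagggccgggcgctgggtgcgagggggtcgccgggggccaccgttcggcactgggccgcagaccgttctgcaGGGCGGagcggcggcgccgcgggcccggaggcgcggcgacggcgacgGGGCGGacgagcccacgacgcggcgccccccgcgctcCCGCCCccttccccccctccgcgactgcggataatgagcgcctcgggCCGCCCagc
SS18, chr18:26091220-26091469, minus strand: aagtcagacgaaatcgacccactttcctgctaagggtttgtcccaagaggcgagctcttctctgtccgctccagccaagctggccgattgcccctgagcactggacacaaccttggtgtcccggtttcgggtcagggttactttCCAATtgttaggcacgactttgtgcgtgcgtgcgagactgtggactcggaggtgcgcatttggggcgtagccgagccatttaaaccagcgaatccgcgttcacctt

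The DPF3 stretch holds 3 marked motifs, the DPF2 stretch 1, the SS18L1 stretch 4 and the SS18 stretch 1. All 4 in SS18L1 are GC boxes, DPF3 has 1 GC box, and DPF2 and SS18 have none. In each pair the lower gene thus holds more marked motifs, and a motif match is a description of the letters and not a site. RefSeq windows of 300 bases (250 before to 50 after the start) were matched for 42 of the 48 genes, and 37 of these starts lie within 100 bases of a GENCODE transcript start. The window of DPF2 also holds a YY1 match, which is not in the stretch printed above. GGGCGG on either strand occurred in 35 of 42 windows (83.3%), beside 58.5% of 15843 protein-coding windows. CCAAT occurred in 16 of 42 (38.1%), beside 36.4%. TATAAA occurred in none of the 42, beside 9.63%, and the E-box CACGTG in 2 of 42, beside 8.88%. The windows of the members were GC-rich, with a median G and C content of 68.8% against 62.7% over all protein-coding windows. Their median number of CpG was 31 against 22. The protein-coding windows were taken whatever the level of the gene, while 47 of the 48 members were called above 1 FPKM by limma. Whether these gaps go with level was not tested.

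The subunits that define BAF were led by ARID1A. ARID1B (chromosome 6, 156776020 to 157210779), mutated in Coffin-Siris syndrome, had 21.5, 23.1 and 22.7 FPKM. ARID2, the counterpart in PBAF, had 14.7, 13.4 and 14.5 FPKM. ARID1A (chromosome 1, 26693236 to 26782110) had 50.1, 54.8 and 53.2 FPKM and lay above both in every library. ARID1B over ARID1A gave a log2 difference of -1.23 ± 0.01 (SD, n = 3), the tightest proportion of all 26 pairs, and ARID2 over ARID1A gave -1.88 ± 0.13. SMARCA4 FPKM divided by ARID1A FPKM was 3.83 ± 0.402, so the RNA of the defining subunit was the lower of that pair.

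PBAF and ncBAF subunits lay in the middle of the range, with a median of 33.9 FPKM and 5 of 5 called above 10 FPKM. PBRM1, a bromodomain protein lost in kidney cancer, had 36.2, 35.6 and 36.8 FPKM. BRD9, the bromodomain subunit of ncBAF, had 23.8, 23.0 and 22.5 FPKM, and BRD7, that of PBAF, had 62.6, 49.2 and 61.4 FPKM. BRD9 was the lower in all libraries, by a log2 difference of -1.31 ± 0.19 (SD, n = 3). BRD7 shares 42.3% of its annotated exonic bases with ADCY7 on the other strand (8.82 FPKM), so its value is uncertain, because it is not known here whether counting was by strand. The same holds for smaller overlaps, among them TRIP13 (66.8 FPKM) on the other strand of BRD9.

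The BCL7 subunits are small proteins bound to the ATPase module. BCL7A, a gene altered in lymphoma, had 22.9, 19.9 and 22.2 FPKM, and BCL7C had 13.0, 12.2 and 13.7 FPKM. BCL7B had 40.6, 32.4 and 41.8 FPKM and was the highest in each library, with 52.4% ± 1.87 of the sum (SD, n = 3). BCL7C was called above 10 FPKM at a log2 value of 0.37 (SE 0.074, limma adjusted p = 0.0141), a call lost without replicate 1 (adjusted p = 0.0719) and without replicate 3 (adjusted p = 0.0964), and lying at -0.12 after rescaling to TPM (adjusted p = 0.267).

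**Figure D2:**
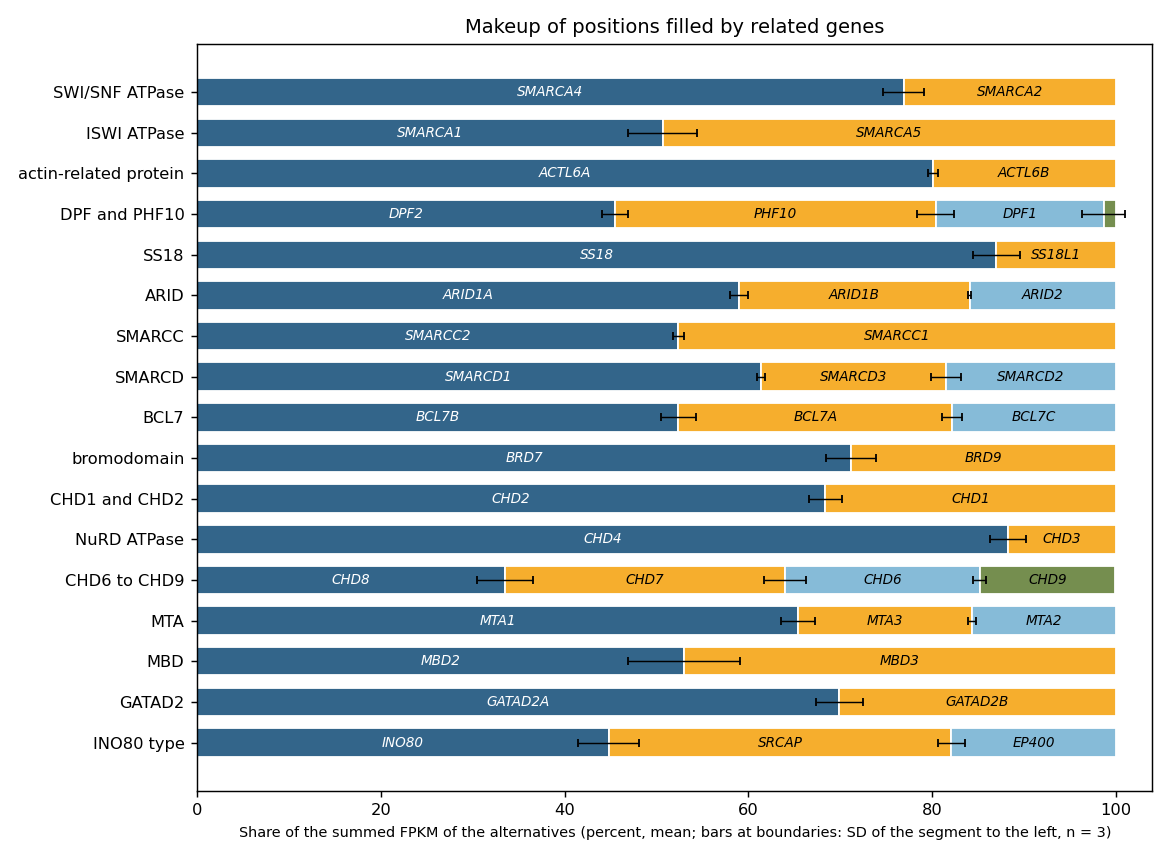
Share of each gene in the summed FPKM of a set of related genes (x axis, percent, mean of 3 libraries), with 1 bar per set. Each black bar at a boundary is the SD of the segment to its left. The unlabelled last segment of the DPF bar is DPF3 at 1.3%. Not every set holds genes that replace each other, as BRD7 belongs to PBAF and BRD9 to ncBAF. The CHD1 and CHD2, CHD6 to CHD9 and INO80-type bars group related ATPases. ACTL6A, SS18 and CHD4 hold 80.1%, 87.0% and 88.3% of their sets. SMARCA1 with SMARCA5, SMARCC2 with SMARCC1, and MBD2 with MBD3 are near even.

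CHD4 and MTA1, the highest genes of the whole set, belong to NuRD. The median of the 9 NuRD means was 62 FPKM, below the 99.9 FPKM of the SWI/SNF core subunits. CHD3 (chromosome 17, 7884806 to 7912760), an ATPase of NuRD, had 151.6, 202.8 and 125.6 FPKM. CHD4 (chromosome 12, 6570082 to 6614524), the main NuRD ATPase in most tissues, had 1142, 1282 and 1171 FPKM in the same libraries. Every CHD4 value was above every CHD3 value, and CHD3 held 11.7% ± 1.98 of the sum (SD, n = 3; log2 difference -2.93 ± 0.28). CHD4 ranked 89 among 16750 protein-coding genes and accounted for 56.4%, 59.6% and 58.7% of the summed FPKM of the 17 ATPase genes among the 48. SMARCA4 was next with 9.8% ± 0.919, and EP400 was lowest with 0.482% ± 0.035. CHD4 has 54 annotated transcripts of 168 to 6673 bases, and a gene's FPKM depends on how reads are divided among such transcripts, whose part in the level was not tested. CHD4 also shares 46.9% of its exonic bases with the read-through gene AC006064.6 on the same strand, for which no value was used here, so the CHD4 value is uncertain. SMARCA4 also has 54 transcripts, and across the 48 genes Spearman's rho between the number of transcripts and the level was 0.42, beside 0.40 over 16753 protein-coding genes (a description; the genes share libraries and annotation).

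The MTA subunits bind the deacetylases. MTA1 had 247.4, 291.1 and 246.8 FPKM and MTA3 had 75.0, 81.9 and 71.3 FPKM, against 62.9, 58.0 and 65.1 FPKM for MTA2. MTA1 lay above the others in every library and held 65.4% ± 1.87 of the sum, with a log2 difference over MTA2 of 2.07 ± 0.22 (SD, n = 3). MTA3 over MTA2 gave 0.29 ± 0.19, positive in 3 of 3 libraries but less than 2 SD from 0. AL928654.2 on the other strand of MTA1 had 71.8, 84.9 and 72.9 FPKM and was, like MTA1, highest in replicate 2; its part in the MTA1 value was not tested.

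The MBD subunits, which define alternative NuRD complexes, could not be ordered. MBD3 had 27.1, 32.2 and 36.8 FPKM, and MBD2 had 40.5, 30.3 and 37.5 FPKM. The groups overlap, and MBD3 over MBD2 gave a log2 difference of -0.17 ± 0.36 (SD, n = 3; exact permutation p = 0.75, adjusted 0.78), with the sign turned in replicate 2. Without replicate 1 the difference was 0.03. MBD3 shares 9.8% of its exonic bases with the read-through gene AC005943.1 on the same strand, which had 19.4, 11.3 and 16.4 FPKM and was highest in replicate 1, where MBD3 was lowest. It shares 1.9% with AC005943.2, an unclassified transcript on the other strand, which had 100.9, 141.1 and 147.6 FPKM and, like MBD3, was lowest in replicate 1 and highest in replicate 3. The part of either in the MBD3 value was not tested. The bridging subunit GATAD2B had 24.8, 28.1 and 26.6 FPKM, against 63.4, 56.9 and 64.5 FPKM for GATAD2A, which was the higher in every library and held 69.9% ± 2.56 of the sum.

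CHD4 was also far above the other subunits of its complex. CHD4 FPKM divided by MTA1 FPKM was 4.59 ± 0.172, by GATAD2A FPKM 19.6 ± 2.56 and by MBD2 FPKM 33.9 ± 7.42 (SD, n = 3). Of 11 other NuRD partners, whose median was 50.0 FPKM, 9 lay above 10 FPKM by limma and 2 lay below. Among the protein-coding genes tested, these calls were made for 44.2% and 47.8%. The deacetylase gene HDAC2 was highest at 262.8 ± 8.94 FPKM and HDAC1 stood at 26.2 ± 2.92. PWWP2B was the lowest of these partners at 4.38 ± 0.936 FPKM. CHD5, the neuronal NuRD ATPase gene in the chromosome arm often lost in neuroblastoma, had 6.71, 6.39 and 8.16 FPKM. It was called above 1 FPKM and below 10 FPKM, and lay far under both CHD3 and CHD4.

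**Figure D3:**
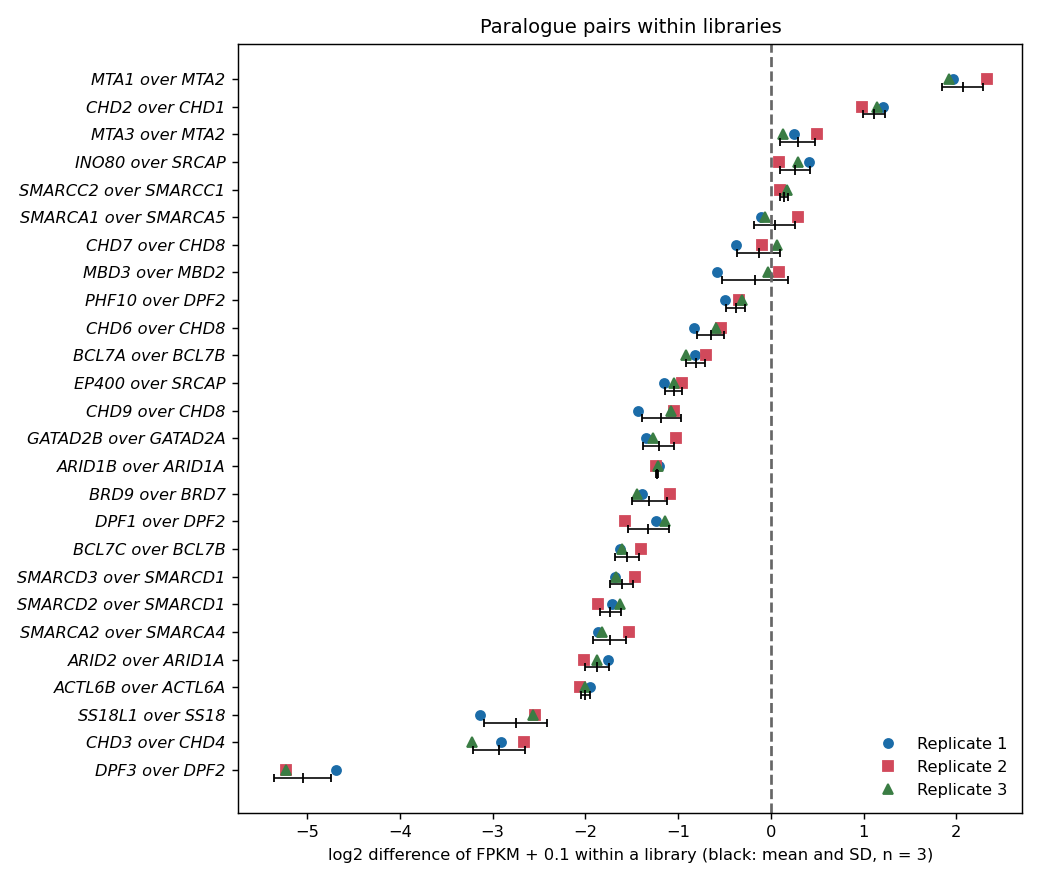
Log2 difference of FPKM + 0.1 between the first and the second gene of 26 pairs (x axis), with 1 coloured point per library and the mean and SD of 3 libraries in black; negative values mean that the first gene is lower. DPF3 over DPF2 (-5.05) and MTA1 over MTA2 (2.07) are at the ends, and SMARCA1 over SMARCA5, CHD7 over CHD8 and MBD3 over MBD2 have points on both sides of 0.

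The other CHD ATPases lay close together, between 20.6 and 61.4 FPKM in mean, and 6 of 6 were called above 10 FPKM. CHD2, mutated in childhood epilepsy, had 68.0, 54.8 and 61.6 FPKM, against 29.4, 27.7 and 27.8 FPKM for CHD1, a reader of the active promoter mark at histone H3 lysine 4. CHD2 was higher than CHD1 in each library, with a log2 difference of 1.11 ± 0.12 (SD, n = 3). CHD7 (chromosome 8, 60678778 to 60868028), the CHARGE syndrome gene with a role in neural crest, had 43.2, 40.2 and 44.7 FPKM. CHD6 had 31.6, 29.4 and 28.3 FPKM and CHD9 had 20.8, 20.8 and 20.1 FPKM, against 56.3, 42.9 and 42.6 FPKM for CHD8, a gene linked to autism.

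CHD7 and CHD8 overlapped, and no order was found between them (log2 difference of CHD7 over CHD8 -0.13 ± 0.23, SD, n = 3; exact permutation p = 0.5, adjusted 0.542). CHD6 and CHD9 both lay below CHD8 in each library, with log2 differences of -0.65 ± 0.15 and -1.18 ± 0.21.

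The ISWI ATPases, which space nucleosomes evenly, were present at close levels. SMARCA1 (SNF2L; chromosome X, 129446501 to 129523500), known for its expression in neurons, had 52.2, 56.2 and 53.8 FPKM, and SMARCA5 (SNF2H; chromosome 4, 143513463 to 143557486), known for proliferating cells, had 56.3, 46.0 and 56.1 FPKM. Their log2 difference of 0.04 ± 0.22 (SD, n = 3; exact permutation p = 1) was positive in replicate 2 alone, and was -0.09 without it. SMARCAD1, which restores silent chromatin after replication, had 30.4, 27.3 and 29.6 FPKM. HELLS, needed for DNA methylation at repeats, had 17.1, 13.0 and 15.5 FPKM and was called above 10 FPKM (limma adjusted p = 0.0119), a call lost without replicate 1 (adjusted p = 0.0507) and without replicate 3 (adjusted p = 0.0684), and after rescaling to TPM (adjusted p = 0.476). CDCA7, whose protein recruits HELLS, stood at 22.4 ± 3.04 FPKM.

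The INO80-type ATPases, which exchange histone H2A variants, were the lowest group, with a median of 20.6 FPKM. INO80 had 26.7, 22.0 and 25.7 FPKM and EP400 had 8.97, 10.6 and 10.2 FPKM, against 20.0, 20.7 and 21.1 FPKM for SRCAP, mutated in Floating-Harbor syndrome. EP400 was the lower in all 3 libraries (log2 difference over SRCAP -1.05 ± 0.09, SD, n = 3), and INO80 the higher by 0.26 ± 0.16, a difference under 2 SD. EP400 has a near copy, EP400P1 (4.52, 4.42 and 5.21 FPKM), and reads could be divided between them, so the EP400 value is uncertain. SRCAP shares 74.1% of its exonic bases with the read-through gene AC106886.5 on the same strand (1.33 FPKM), and is uncertain in the same way.

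Other genes of these complexes and related helicases, 64 in all, had a median of 25.4 FPKM. They ran from BCL11B, listed at 0, to the actin gene ACTB at 2577 FPKM. Of the 63 tested, 62 were called above 1 FPKM, beside 70.6% of the protein-coding genes tested and 45.5% of all genes. Above 10 FPKM were 49, beside 44.2% and 25.1%, and below 10 FPKM were 10, beside 47.8% and 68.1%. Among SWI/SNF partners, the ncBAF genes BICRA (8.77 ± 0.597 FPKM) and BICRAL (7.64 ± 0.143) were low, the neuronal zinc finger gene BCL11A stood at 5.15 ± 0.411, and BCL11B is its paralogue. ISWI partners gave 8 of 9 above 10 FPKM, with BAZ2A, the nucleolar partner, highest at 90.6 ± 11.5 FPKM, and CECR2 below 1 FPKM at 0.00967 ± 0.0127. The 26 INO80, SRCAP and TIP60 partners gave 23 above 10 FPKM, from MORF4L1 at 298.8 ± 19.4 FPKM to INO80D at 1.44 ± 0.0625. The list of other SNF2-type helicases held 13 genes with the HELLS partner CDCA7, which is not a helicase. Of these, 8 were called above 10 FPKM, CDCA7 among them. ATRX was highest at 86.1 ± 2.28 FPKM and RAD54L2 lowest at 6.31 ± 0.193.

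Spread between flasks was mostly small. The median SD of log2(FPKM + 0.1) over the 48 genes was 0.092, against 0.090 over the 8086 protein-coding genes that averaged 10 FPKM or more. PHF10 (SD 0.00658), PBRM1 (0.0244) and SMARCD1 (0.0252) varied least, and DPF3 (0.412), CHD3 (0.348) and DPF1 (0.265) varied most. The highest CHD3 library exceeded the lowest 1.61-fold, and of 1110 protein-coding genes that averaged 100 FPKM or more only 1 had a larger SD. SS18 and CHD8 showed another pattern, with replicate 1 above replicates 2 and 3, which lay within 1 FPKM of each other. DPF2 (48.0, 42.7 and 42.1 FPKM) and CHD1 (29.4, 27.7 and 27.8 FPKM), among others, had that order too, with smaller gaps.

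Replicate 2 held the lowest value for 27 of the 48 genes (56.2%), beside 45.5% of the 8086 protein-coding genes, and replicate 1 held the highest for 24 (50.0%), beside 36.1%. Among the 9 NuRD genes, replicate 2 was highest for 5 (55.6%), CHD4, CHD3, MTA1 and MTA3 among them, beside 27.8% of the protein-coding genes, and lowest for 3 (33.3%). The flasks have no labelled difference, and no test was made of these counts.

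**Figure D4:**
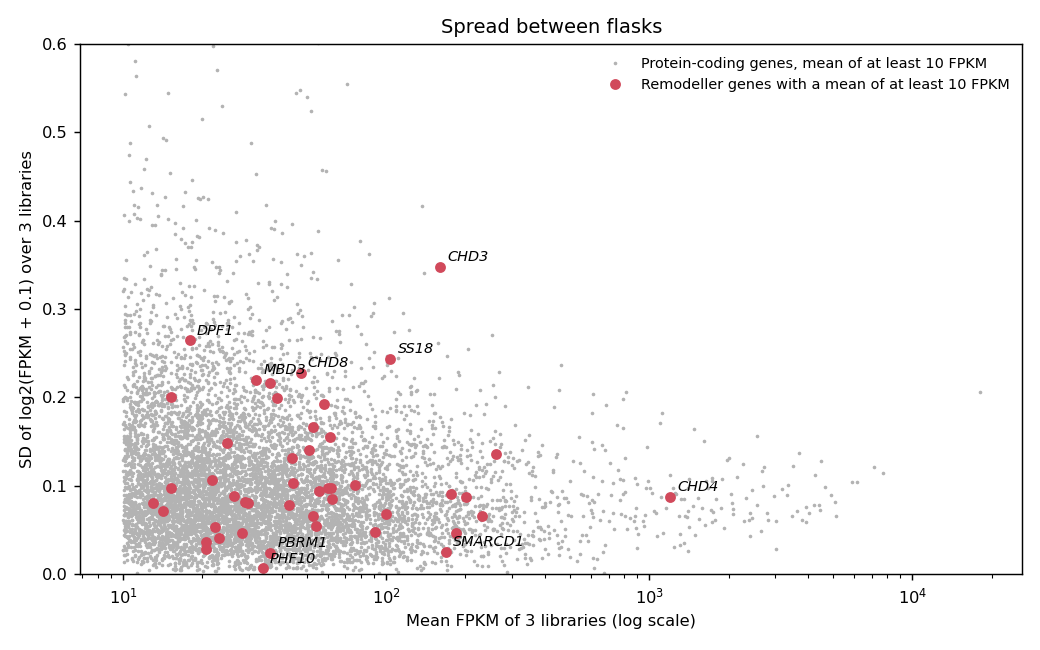
SD of log2(FPKM + 0.1) over 3 libraries (y axis) against mean FPKM (x axis, log scale) for protein-coding genes averaging 10 FPKM or more (grey) and the remodeller genes among them (red); 18 grey genes lie above the axis limit of 0.6. CHD3 at 0.348 lies above nearly all genes of its level, CHD4 at 0.0878 lies among them, and PHF10 at 0.00658 lies near 0.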

How the data were processed

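RNA was sequenced from 3 flasks of SHSY5Y cells as stranded mRNA libraries made from 500 ng of total RNA and read as single reads of 50 bases, per the labels' protocols. Cufflinks 2.2.1, TopHat2 2.1.1, FastQC 0.10.1, bcl2fastq and hg38 are listed in the submitters' processing notes. No source used here gives their settings, the annotation or the strand setting. The authors deposited 1 FPKM value per gene and library, with no further scaling stated.

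Identifiers were matched to GENCODE 29 (57046 of 60660), and a name shared by several identifiers took the one with the highest mean. A gene was tested if any library had it above 0 and at least 2 had a value. The test was limma's (version 3.58.1, R 4.3.3; intercept only, two-sided, Benjamini-Hochberg over all genes tested) on log2(FPKM + 0.1) against 1 and 10 FPKM. For low genes this scale makes the distance from a level look smaller. No count model was fitted to FPKM. The limma errors were moderated, which draws each gene's spread between flasks toward that of all genes tested. PHF10, with an SD of 0.00658, thus had an SE of 0.0646 against 1 FPKM. The limma step was tested on simulated data. Pairs were compared within libraries by an exact sign-flip test. Other steps used Python 3.11.15. Reads were estimated from single-transcript genes of at least 600 bases with an assumed fragment length of 200 bases, where 97.0%, 96.9% and 96.5% of low values lay within 0.1 of a whole read (chance gives 20%).

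The naming rule was to give every one of the 48 members, with per-library values for related genes set beside each other. It also gave the highest and lowest gene of each list of partners. HDAC1, CHD5, BICRA, BICRAL, BCL11A and CDCA7 and the overlapping genes were named after their values were seen. Members, pairs, lists and alternatives were chosen with earlier results of these data known. Alternatives covered pseudocounts, rescalings, filters, levels, summed identifiers and each library left out.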

Additional observations from a re-analysis of the deposited data

How the results depend on the processing

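Counts of members on each side of a level changed with the level and with rescaling to TPM, which shifts every gene of replicates 1, 2 and 3 by -0.473, -0.543 and -0.459 on the log2 scale and so acts as a higher level. Members called below were 1 at 5 FPKM, 6 at 20 FPKM and, against 10 FPKM, 2 in TPM. Members called above were 36 at 20 FPKM and, against 10 FPKM, 41 in TPM, beside 46 as reported. The 5 calls lost in TPM were those of BCL7C, SS18L1 (adjusted p = 0.244), DPF1 (0.113), ARID2 (0.882) and HELLS (0.476), and EP400 gained a call below (0.00678). DPF3 against 1 FPKM gave a log2 value of -0.16 in TPM, and -1.93 against a level of 5 FPKM. At 20 FPKM, BCL7C (-0.62), SS18L1 (-0.39), DPF1 (-0.18), ARID2 (-0.49) and HELLS (-0.40) lay below the level, and BCL7C against 10 FPKM gave -0.12 in TPM. With each replicate left out in turn, EP400 against 10 FPKM ranged from -0.06 to 0.05 on the log2 scale, MBD3 over MBD2 from -0.30 to 0.03, and SMARCA1 over SMARCA5 from -0.09 to 0.11. Of 1501 recomputed values of single genes, pairs and shares, 11 turned direction, all given here. Among those that kept their direction, 14 lost a call and 3 gained one. Some that turned direction changed call as well, among them BCL7C against 10 FPKM in TPM. Calls against 10 FPKM that were lost without 1 library were those of BCL7C, HELLS and, without replicate 3, DPF1 (adjusted p = 0.0508). No paired analysis was possible because the labels give 1 group. DPF3 and EP400, the lowest of the 48 in mean FPKM, lay above the floor of 3 reads in every library.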
